A study of Danio rerio with 9 samples.

Results

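Apolipoproteins are the protein components of the particles that carry lipids in plasma. The values described here are those of 10 zebrafish apolipoprotein genes, apoba, apobb.1, apoa1a, apoa1b, apoa2, apoa4b.1, apoc1, apoc2, apoea and apoeb. They were chosen as the entries of the deposited table of 21109 genes or transcripts whose symbol equals one of these names, and all 10 were found. The genes were selected as a family, on FPKM that in most of them was high in the As2S2 libraries relative to those labelled sf3b1 MO. apoeb was not high there. The comparisons of those libraries are therefore given for the 10 genes as a description, with no test. The RNA came from zebrafish embryos, labelled as trunk, in 3 groups of 3 libraries made from polyA-selected RNA. Embryos of the first group, sf3b1 MO + As2S2, carried a morpholino against sf3b1, a gene of the splicing machinery, and received the arsenic sulfide As2S2. Those of the second group, sf3b1 MO, carried the sf3b1 morpholino alone, and those of the third group, control MO, carried a control morpholino. The design text of the series speaks of an SF3B1 knockout, while the titles name a morpholino, an antisense oligonucleotide that blocks translation or splicing. Embryonic age, As2S2 dose and the number of pooled embryos stand in none of the labels used. As no label ties the replicates to separate clutches, spreads and p-values measure only the variation between these libraries, which may be technical.

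Apolipoprotein B forms the scaffold of the large triglyceride-rich particles that liver, intestine and, in the fish embryo, the yolk syncytial layer secrete. Apolipoproteins A-I and A-II are the main proteins of high-density lipoprotein, which takes up cholesterol from cells through ABCA1. The small C apolipoproteins set how fast lipases and receptors act on the particles, and apolipoprotein E is the ligand by which receptors of the LDL receptor family remove them. In zebrafish larvae these genes are known mainly from yolk syncytial layer, liver and intestine, and apoeb also from epidermis and microglia.

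Total counts were 21942696 to 26197696 in the libraries labelled sf3b1 MO and 25177824 to 28702980 in the control MO libraries, and no depth is known for the As2S2 libraries. For sf3b1 itself, FPKM and counts went opposite ways between the libraries labelled sf3b1 MO and control MO. It averaged 169 ± 2.27 FPKM with As2S2, 108 ± 1.75 FPKM in sf3b1 MO and 171 ± 4.68 FPKM in control MO (SD, n = 3 each), but in counts scaled to library size (CPM) it averaged 877 ± 20.3 CPM in sf3b1 MO, against 541 ± 5.92 CPM in control MO. The groups are therefore named throughout as the libraries were labelled. RNA of 10 eye genes summed to 981 to 1007 FPKM with As2S2, 3685 to 3766 FPKM in sf3b1 MO and 4904 to 5080 FPKM in control MO, so eye RNA was present in libraries labelled as trunk. RNA of 8 brain genes summed to 181 to 192 FPKM with As2S2, 210 to 215 FPKM in sf3b1 MO and 176 to 182 FPKM in control MO. The 8 skeletal muscle genes summed to 2345 to 2451 FPKM with As2S2, 4271 to 4467 FPKM in sf3b1 MO and 10845 to 10960 FPKM in control MO.

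In the 6 libraries that have both, FPKM and counts kept 1 ratio for 7 of the 10 genes, unlike for sf3b1. For each gene, FPKM divided by CPM should be the same in every library. The highest of the 6 ratios exceeded the lowest by a factor of 1.02 to 1.06 for apoba, apobb.1, apoa1a, apoa2, apoc1, apoea and apoeb, against a median of 1.03 over the 13430 genes that had no library under 100 counts. The factor was 1.44 for apoa4b.1, 1.50 for apoa1b and 6.63 for apoc2, all above the 95th percentile of 1.22. apoc2 had fewer than 100 counts in every library, apoa4b.1 in all but control MO replicate 1, and apoba in the libraries labelled sf3b1 MO. apoc2, apoa4b.1 and apoba were therefore not among the genes that gave this median and percentile. In apoc2 a single library was responsible: replicate 1 labelled sf3b1 MO had 0.271 FPKM at 34 counts, where replicates 2 and 3 had 1.50 and 1.40 FPKM at 33 and 38 counts. In apoa1b it was control MO replicate 1, with 14.0 FPKM at 806 counts, where control MO replicates 2 and 3 had 19.8 and 17.5 FPKM at 708 and 702 counts. For apoa4b.1, apoa1b and apoc2 both the counts and the FPKM are therefore given.

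**Figure D1:**
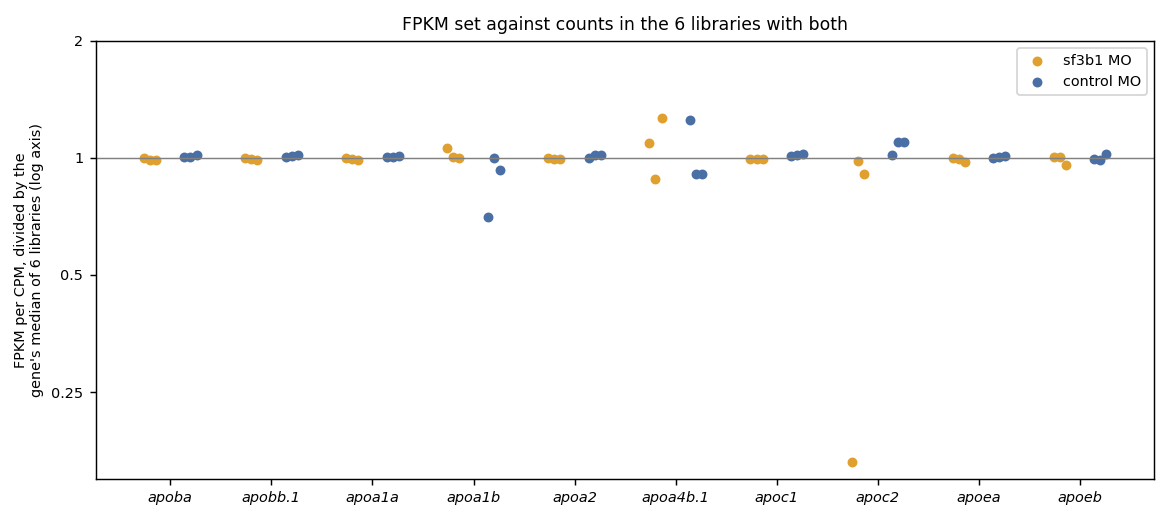
FPKM per CPM of each apolipoprotein gene, divided by the gene's median over the 6 libraries with both values (log axis), with each point 1 library labelled sf3b1 MO or control MO. 7 genes lie on the line at 1, apoa1b and apoa4b.1 scatter, and apoc2 has 1 library labelled sf3b1 MO far below.

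With As2S2, 8 of the 9 apolipoprotein genes that could be fitted on FPKM stood at least 1 log2 unit above the median gene relative to the libraries labelled sf3b1 MO, where 4.31% of all 18013 genes tested did so. All 8 also passed the limma threshold on the higher side, beside 17.3% of all genes, and none on the lower side, beside 44.5%. These counts repeat what the genes were chosen for, and nothing is read from them. The median gene itself lay at -0.20 on the log2(FPKM + 1) scale in this comparison, so differences are given relative to it, and they had a median of 1.59 over the 9 genes. In bulk RNA, a change in the number of cells that express a gene and a change in the RNA of each cell cannot be told apart. The genes follow by role.

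Among the high-density lipoprotein genes, apoa1a and apoa2 had the highest levels of the 10 genes with As2S2. Values in FPKM are per kilobase of transcript, so levels can be set beside each other across genes. apoa1a, 1 of the pair of genes for apolipoprotein A-I, had 88.8, 75.6 and 69.6 FPKM with As2S2, 19.3, 19.1 and 14.5 FPKM in sf3b1 MO, and 5.86, 4.57 and 7.17 FPKM in control MO. The 3 groups did not overlap and formed 3 steps. Its mean with As2S2 was 4.42 times that in sf3b1 MO and 13.3 times that in control MO, with log2 differences of 2.29 and 3.78 relative to the median gene (SE 0.16 for both). apoa2, which encodes the other main protein of these particles, had 78.6, 77.3 and 77.4 FPKM with As2S2, 15.6, 13.6 and 16.0 FPKM in sf3b1 MO, and 9.69, 11.2 and 10.9 FPKM in control MO. It showed the same order of groups without overlap, and its As2S2 libraries differed among themselves by less than those of apoa1a. The As2S2 mean was 5.17 times the sf3b1 MO mean and 7.35 times the control MO mean, or 2.50 and 3.02 on the log2 scale relative to the median gene (SE 0.07).

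The second apolipoprotein A-I gene did not behave uniformly. apoa1b had 66.1, 70.0 and 17.6 FPKM with As2S2, 15.8, 17.1 and 15.3 FPKM in sf3b1 MO, and 14.0, 19.8 and 17.5 FPKM in control MO. Replicates 1 and 2 with As2S2 were high, whereas As2S2 replicate 3 lay within the range of the control MO libraries and barely above those labelled sf3b1 MO. The relative log2 difference from sf3b1 MO was 1.59 (SE 0.43) and became 2.22 without As2S2 replicate 3. It was 1.30 without As2S2 replicate 1 and 1.26 without As2S2 replicate 2, and in both cases apoa1b missed the limma threshold. Against control MO it missed the threshold without As2S2 replicate 1, As2S2 replicate 2 or control MO replicate 1. No counts were used for the As2S2 libraries, so the FPKM of As2S2 replicate 3 could not be set beside a count. In the same library apoa1a had 69.6 FPKM and apoa2 77.4 FPKM, close to their other As2S2 values.

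apoa4b.1, whose product apolipoprotein A-IV is secreted by the intestine with newly absorbed fat in mammals, had 5.62, 5.88 and 6.19 FPKM with As2S2, 1.66, 1.35 and 1.15 FPKM in sf3b1 MO, and 2.62, 1.44 and 1.77 FPKM in control MO. The As2S2 libraries stood apart, and the other groups overlapped in FPKM. The mean with As2S2 was 4.25 times that in sf3b1 MO and 3.04 times that in control MO.

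Of the apolipoprotein B genes, apobb.1 had 3.67, 3.59 and 3.54 FPKM with As2S2, 1.05, 1.18 and 1.30 FPKM in sf3b1 MO, and 1.57, 1.51 and 1.70 FPKM in control MO. Its mean with As2S2 was 3.06 times that in sf3b1 MO, a relative log2 difference of 1.28 (SE 0.08), and 2.26 times that in control MO. apoba stayed below 1 FPKM in every library and was not fitted on FPKM. It had 0.334, 0.471 and 0.464 FPKM with As2S2, 0.192, 0.266 and 0.229 FPKM in sf3b1 MO, and 0.565, 0.378 and 0.601 FPKM in control MO. The As2S2 libraries lay above all those labelled sf3b1 MO, with a ratio of means of 1.85, and overlapped the control MO libraries, with a ratio of 0.822.

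Among the C apolipoproteins, apoc1, whose product slows the uptake of particles by receptors in mammals, had 13.9, 17.8 and 18.6 FPKM with As2S2, 7.20, 7.58 and 4.83 FPKM in sf3b1 MO, and 9.74, 10.8 and 9.96 FPKM in control MO. The groups did not overlap, and sf3b1 MO values were the lowest. apoc2, the cofactor that lipoprotein lipase needs, had 2.84, 3.55 and 2.82 FPKM with As2S2, 0.271, 1.50 and 1.40 FPKM in sf3b1 MO, and 3.36, 2.03 and 2.81 FPKM in control MO. Its As2S2 and control MO libraries overlapped, and the libraries labelled sf3b1 MO were below both. The relative log2 difference of As2S2 from sf3b1 MO was 1.45 for apoc1 (SE 0.15) and 1.25 for apoc2 (SE 0.25), and the apoc2 value was 0.93 without sf3b1 MO replicate 1, whose FPKM went against its count.

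The apolipoprotein E genes diverged most. apoea had 34.8, 36.0 and 35.6 FPKM with As2S2, 4.84, 4.33 and 5.24 FPKM in sf3b1 MO, and 5.01, 3.53 and 5.50 FPKM in control MO. Every As2S2 library was far above the others, which overlapped. The ratio of means, 7.38 against sf3b1 MO and 7.58 against control MO, corresponds to relative log2 differences of 2.86 and 2.95 (SE 0.12 for both). apoeb had 48.6, 57.0 and 49.5 FPKM with As2S2, 59.3, 59.9 and 53.7 FPKM in sf3b1 MO, and 64.6, 66.2 and 65.5 FPKM in control MO. Here the As2S2 libraries overlapped those labelled sf3b1 MO and were below every control MO library. Relative to the median gene, apoeb differed by 0.05 from sf3b1 MO and by -0.09 from control MO (SE 0.06 for both), and without that shift by -0.16 and -0.34.

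**Figure D2:**
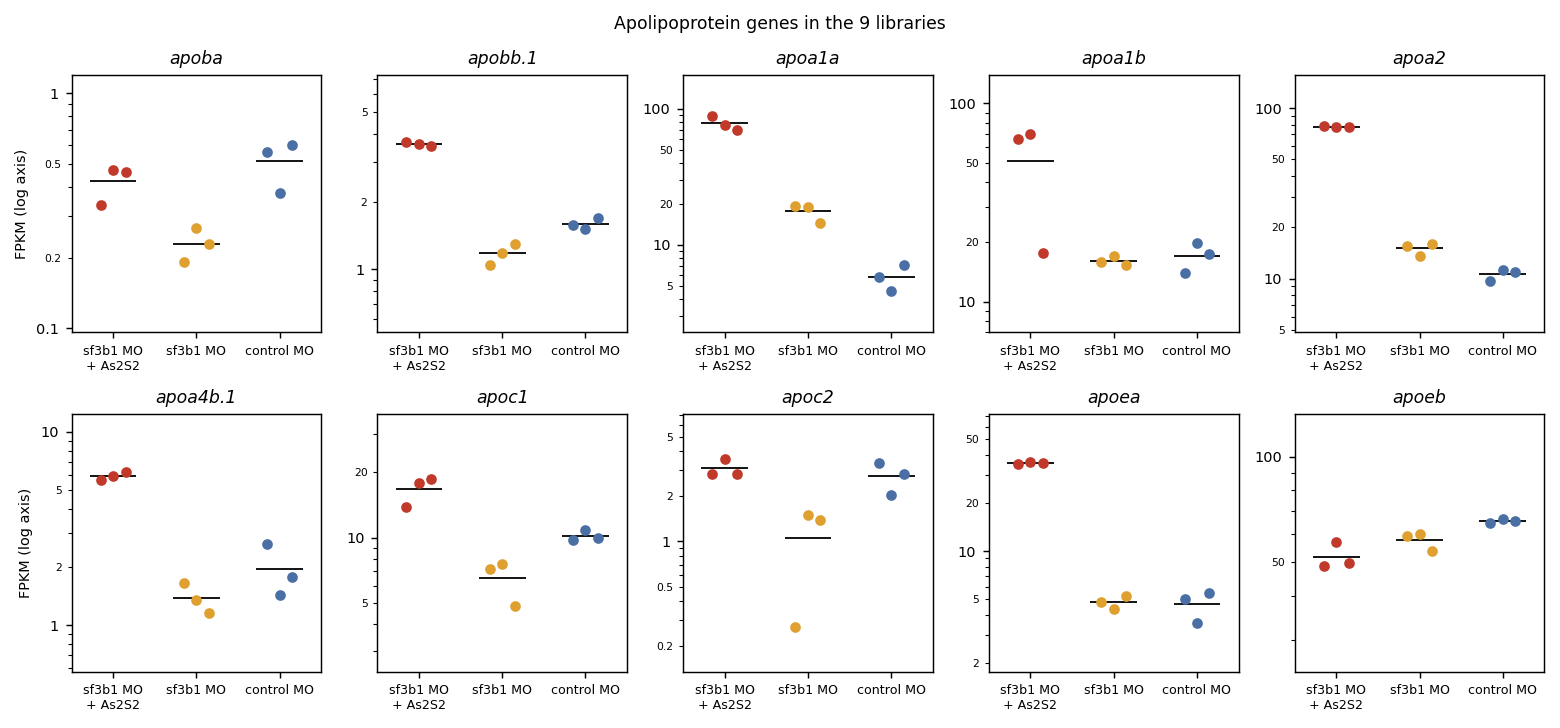
FPKM of the 10 apolipoprotein genes in each of the 9 libraries (log axis, its range set for each gene), with each point 1 library and the bar the group mean. apoea, apoa2, apoa1a, apoa4b.1, apobb.1 and apoc1 with As2S2 lie above all other libraries, and apoa1b has 1 As2S2 library at 17.6 FPKM. apoeb with As2S2 overlaps sf3b1 MO and lies below control MO.

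Without As2S2, the genes differed in both directions. On counts, comparing libraries labelled sf3b1 MO with control MO, 2 of the 10 genes rose and 6 fell (edgeR quasi-likelihood test, Benjamini-Hochberg adjusted p under 0.05 over 20723 genes), where 25.2% of all genes rose and 25.9% fell. The median log2 fold change was -0.36 over the 10 genes and -0.02 over all genes tested. This comparison uses the same sf3b1 MO libraries as the one above, so the 2 are not independent.

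apoa1a and apoa2 were the genes that rose. apoa1a averaged 19.0 ± 2.86 CPM in sf3b1 MO and 6.21 ± 1.35 CPM in control MO (SD, n = 3 each), a log2 fold change of 1.61 (SE 0.17, edgeR adjusted p = 1.6e-05). It was the only gene of the 10 at least 1 log2 unit above the median gene, as were 4.84% of all genes. apoa2 averaged 11.1 ± 0.955 CPM in sf3b1 MO and 7.71 ± 0.506 CPM in control MO, a log2 fold change of 0.53 (SE 0.13, edgeR adjusted p = 0.0036). Both genes were thus higher in the libraries labelled sf3b1 MO than in control MO, and higher again with As2S2.

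apoba fell most. Its counts were 62, 90 and 89 in sf3b1 MO and 240, 141 and 233 in control MO, or 3.41 ± 0.563 CPM in sf3b1 MO and 7.54 ± 1.74 CPM in control MO, a log2 fold change of -1.14 (SE 0.21, edgeR adjusted p = 5.0e-04). apobb.1 fell to 16.6 ± 1.83 CPM in sf3b1 MO, against 22.1 ± 1.23 CPM in control MO (log2 fold change -0.41, SE 0.10, edgeR adjusted p = 0.0046). apoc1 fell to 5.67 ± 1.28 CPM, against 8.62 ± 0.477 CPM in control MO (log2 fold change -0.61, SE 0.18, edgeR adjusted p = 0.011). The scaffold genes and apoc1 thus fell in the libraries labelled sf3b1 MO. The high-density lipoprotein genes went both ways: apoa1a and apoa2 were higher, while apoa1b, the second apolipoprotein A-I gene, fell on counts.

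Smaller or less certain falls followed. apoeb, the best counted of the genes with 1949, 2054 and 2198 counts in sf3b1 MO and 2838, 2584 and 2595 counts in control MO, fell by 0.17 on the log2 scale (SE 0.05, edgeR adjusted p = 0.0072). apoa1b fell by 0.31 (SE 0.08, edgeR adjusted p = 0.0079) on counts of 457, 543 and 559 in sf3b1 MO and 806, 708 and 702 in control MO. On FPKM the difference of apoa1b was -0.07 and did not pass the threshold (limma adjusted p = 0.90). apoc2, with 34, 33 and 38 counts in sf3b1 MO and 91, 45 and 65 counts in control MO, fell by 0.72 (SE 0.27, edgeR adjusted p = 0.042), and by 0.91 on FPKM (limma adjusted p = 0.014). The call was lost in DESeq2 (adjusted p = 0.088). It was also lost when any 1 library other than control MO replicate 2 was left out, with edgeR adjusted p between 0.069 and 0.22.

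The remaining genes did not pass the threshold. apoa4b.1 had 56, 59 and 40 counts in sf3b1 MO and 102, 68 and 88 counts in control MO, a log2 fold change of -0.51 (SE 0.25, edgeR adjusted p = 0.11), and on FPKM it was -0.29 (limma adjusted p = 0.13). apoea, the gene with the largest As2S2 difference from sf3b1 MO, had 123, 115 and 162 counts in sf3b1 MO and 168, 104 and 169 counts in control MO, a log2 fold change of 0.06 (SE 0.19, edgeR adjusted p = 0.82). The sign of the apoea value turned when control MO replicate 2 or sf3b1 MO replicate 3 was left out, at -0.10 and -0.02. In the authors' deposited table, the log2 fold changes of the 10 genes for these libraries ran from -1.13 for apoba to 1.62 for apoa1a.

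**Figure D3:**
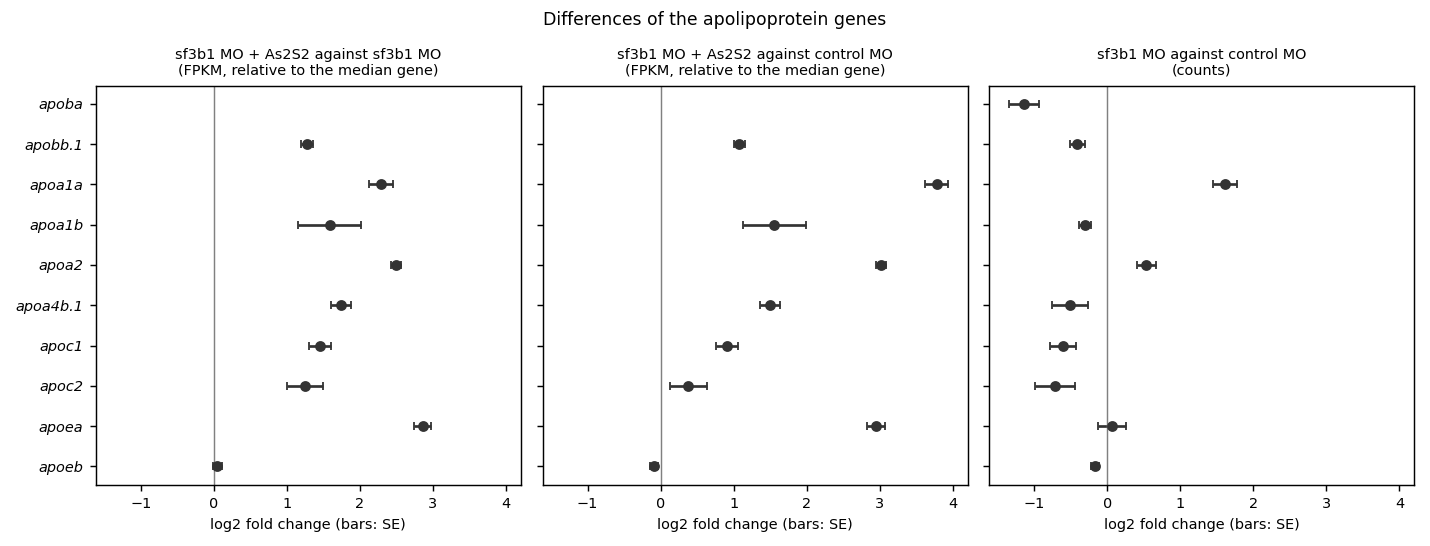
Log2 fold changes of the apolipoprotein genes with their standard errors: As2S2 against sf3b1 MO and As2S2 against control MO on FPKM, relative to the median gene, and sf3b1 MO against control MO on counts. apoba is absent from the FPKM panels because it lies under 1 FPKM, apoeb stays near 0 throughout, and apoa1a is to the right of 0 in all 3 panels.

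Set against control MO, the As2S2 libraries were higher in 7 of the 9 fitted genes, beside 19.5% of all genes, and lower in apoeb, beside 48.5%, by the limma threshold. At least 1 log2 unit above the median gene were 6 of the 9, beside 6.42% of all genes. Again these are a description, since the As2S2 libraries chose the genes and both As2S2 comparisons share them. The median gene lay at -0.25 here, and the 9 genes had a relative median of 1.50. Genes with lower counts in sf3b1 MO than in control MO ended on different sides of control MO. apobb.1, at 3.60 ± 0.0685 FPKM with As2S2 against 1.59 ± 0.0941 FPKM in control MO, and apoc1, at 16.8 ± 2.51 FPKM against 10.2 ± 0.567 FPKM in control MO, lay above it (SD, n = 3 each). apoc2, at 3.07 ± 0.417 FPKM with As2S2 and 2.73 ± 0.669 FPKM in control MO, and apoba overlapped it. The value of apoeb depends on the scaling: after each library was centred on its median, its difference was -0.04 and no longer past the threshold.

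The make-up of the family differed between groups. FPKM of the 10 genes summed to 324 ± 36.9 with As2S2, 122 ± 6.92 in sf3b1 MO and 121 ± 3.27 in control MO (SD, n = 3 each). The sums of the sf3b1 MO and control MO groups overlapped although single genes differed in both directions: apoa1a and apoa2 were higher and apoc1 and apoeb lower in the libraries labelled sf3b1 MO. apoeb gave 16.1% ± 1.73 of the sum with As2S2, 47.4% ± 0.166 in sf3b1 MO and 54.3% ± 1.06 in control MO. apoa1a, apoa1b and apoa2 together gave 63.6% ± 4.78 with As2S2, 40.1% ± 0.494 in sf3b1 MO and 27.8% ± 2.17 in control MO. None of these shares overlapped between groups, and the order was the same in both: As2S2 at one end, control MO at the other. Most of the 10 genes were chosen as high with As2S2, so the As2S2 sum and shares repeat that choice and nothing is read from them. The same holds for the As2S2 values of the gene pairs and of the order of levels below.

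**Figure D4:**
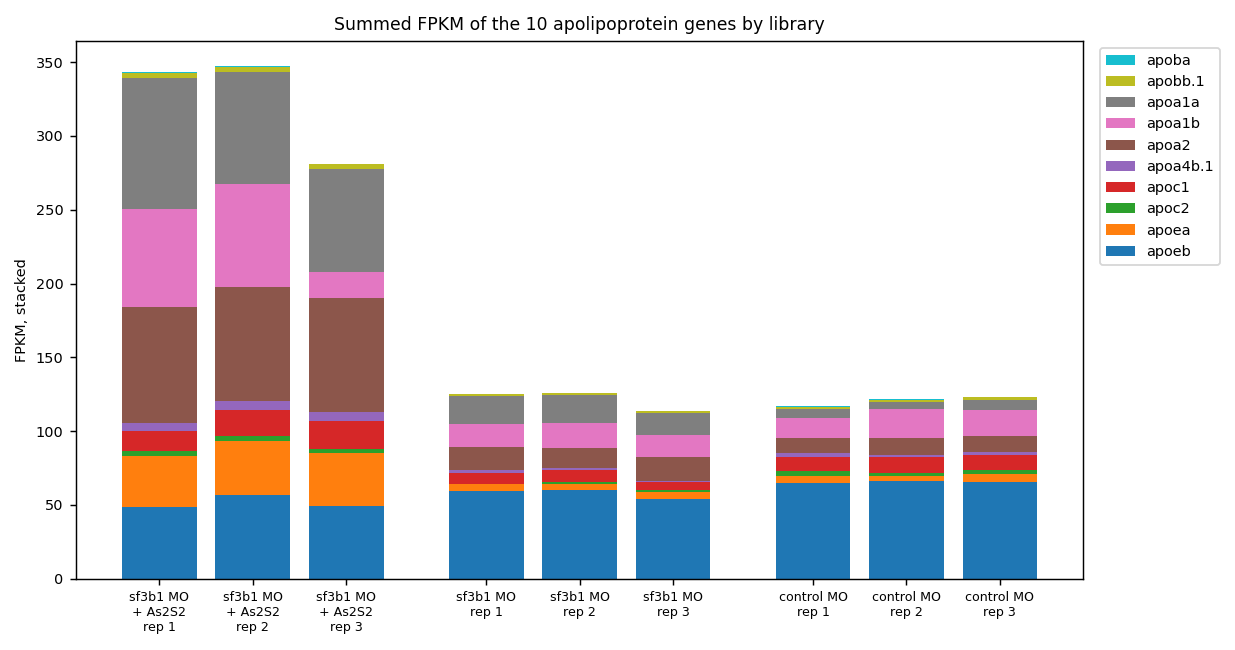
Summed FPKM of the 10 apolipoprotein genes in each library, stacked by gene. The As2S2 libraries reach 281 to 347 FPKM and those of the other groups 114 to 126 FPKM, and the apoeb segment at the bottom is of similar height in all 9.

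Duplicated genes changed their balance as well. Within the apoe pair, apoea gave 40.8% ± 1.77 of the FPKM with As2S2, 7.73% ± 1.09 in sf3b1 MO and 6.67% ± 1.42 in control MO. The As2S2 libraries stood apart, at 38.7% to 41.9%, and the other groups overlapped. Within the apoa1 pair, apoa1a gave 57.3%, 51.9% and 79.8% with As2S2, 55.1%, 52.8% and 48.6% in sf3b1 MO, and 29.5%, 18.7% and 29.1% in control MO. All libraries labelled sf3b1 MO were above all control MO libraries, while the As2S2 range took in sf3b1 MO values, and its high point is the library in which apoa1b was low. As the genes of each pair are duplicates, reads shared between them could be split by the counting, whose settings are not stated in any label.

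The order of levels followed these shares. In control MO, apoeb was first at 65.4 ± 0.830 FPKM, above apoa1b at 17.1 ± 2.91 FPKM, and then came apoa2 and apoc1, whose ranges overlapped. apoa1a, at 5.87 ± 1.30 FPKM, took place 5 there and overlapped apoea. In the libraries labelled sf3b1 MO, apoeb was again first at 57.6 ± 3.45 FPKM, and apoa1a, apoa1b and apoa2 followed with neighbouring ranges that overlapped, between 13.6 and 19.3 FPKM. With As2S2, apoa1a at 78.0 ± 9.82 FPKM and apoa2 at 77.8 ± 0.723 FPKM overlapped at the top, above apoeb at 51.7 ± 4.60 FPKM, which overlapped apoa1b. apoea took place 5 with As2S2 at 35.5 ± 0.626 FPKM, above apoc1. apoba was last in all 3 groups.

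apoeb differed from the matched genes of its cluster, which were alike in direction with As2S2. In the RefSeq annotation of the assembly GRCz12tu, used only for which genes lie next to each other, apoa4b.1, apoeb, apoc1, apoa2 and apoc2 stand in 1 cluster of 10 protein-coding genes, of which 6 were matched in the table. Within it, apoeb at 0.05 stood between apoa4b.2 at 1.16 and apoc1 at 1.45 in relative log2 difference of As2S2 from sf3b1 MO. apoa4b.1 was at 1.74, apoa2 at 2.50 and apoc2 at 1.25. Of these, all but apoa4b.2 belong to the 10 genes chosen on this comparison. apoa4b.2, not 1 of the 10 genes, encodes another apolipoprotein A-IV. The nearest matched genes outside the cluster differed by -0.25 for gtpbp10 on 1 side and by 0.43 for bcam and 0.86 for the ribosomal protein gene rps19 on the other. apoea lies elsewhere, beside apoa4a, and tomm40l, the nearest matched gene past apoa4a, was at -0.05.

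Likeness of pattern was measured over the 9 libraries for the gene with the largest range of group means, apoa1a, and for the gene with the highest mean, apoeb. It was taken as the root mean square distance between log2(FPKM + 1) profiles centred on their own means. Closest to apoa1a was cbx7a, a gene of a Polycomb chromobox protein, at a distance of 0.18, with 58.3 ± 0.844 FPKM with As2S2, 11.9 ± 0.594 FPKM in sf3b1 MO and 4.14 ± 0.576 FPKM in control MO. zgc:158463 at 0.20 and si:dkey-85k7.7 at 0.21 came next. Closest to apoeb were ldha, of lactate dehydrogenase, eif4ebp2, a translation repressor, and cipcb, each at 0.05. None of the other genes of the 10 was among the 3 closest to either.

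Genes that work with apolipoproteins were taken from lists of related functions. Of 130 symbols in 7 lists covering other apolipoproteins, particle assembly, receptors, lipases, cholesterol efflux, cholesterol synthesis and transcription regulators of liver and gut, 90 were found. With As2S2 against sf3b1 MO, 11 of 77 tested genes rose (14.3%) and 42 fell (54.5%) by limma at an adjusted p under 0.05, where 17.3% of all genes rose and 44.5% fell. After each library was centred on its median, 21 rose and 20 fell, where 30.2% of all genes rose and 27.4% fell. Their median relative log2 difference was -0.09. The 9 fitted apolipoprotein genes had 1.59, but they were chosen on this comparison, so nothing is read from the contrast. In sf3b1 MO against control MO, 18 of 88 rose (20.5%) and 34 fell (38.6%) by edgeR, where 25.2% of all genes rose and 25.9% fell, and their relative median was -0.21, where the 10 genes had -0.34. Against control MO, 13 of 77 rose and 46 fell with As2S2, where 19.5% and 48.5% of all genes did. After centring 24 of the 77 rose and 30 fell, where 6275 of all 18013 genes rose and 5048 fell.

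The other apolipoproteins found were apoda.1, apodb, apof, apoa4b.2, apol1 and apobb.2. apobb.2 had values in the As2S2 columns only, at 0.210 ± 0.0770 FPKM. Of the 5 tested with As2S2 against sf3b1 MO, apoa4b.2 rose, with 3.52 ± 1.05 FPKM with As2S2 against 1.32 ± 0.432 FPKM in sf3b1 MO (relative log2 difference 1.16, limma adjusted p = 0.0016). apoda.1, of the lipocalin-type apolipoprotein D, fell to 5.85 ± 1.36 FPKM with As2S2, against 11.1 ± 0.747 FPKM in sf3b1 MO and 21.5 to 23.0 FPKM in control MO. apodb and apof also fell, and after centring 1 of the 5 rose and 1 fell. Lists this short are given by their counts and members alone, and no share is read from them. In sf3b1 MO against control MO none of the 5 rose and 3 fell by edgeR, namely apoda.1 (log2 fold change -0.95), apodb (-0.91) and apof (-0.44).

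Assembly and secretion of particles gave 1 rise and 5 falls among 10 genes with As2S2 against sf3b1 MO, where 17.3% of all genes rose and 44.5% fell, and 4 and 3 after centring, where 30.2% and 27.4% did. pla2g12b, known in zebrafish for loading lipid onto apolipoprotein B particles, was the gene that rose. It had 2.35 ± 0.361 FPKM with As2S2, against 0.594 ± 0.206 FPKM in sf3b1 MO (relative log2 difference 1.28). Only its As2S2 libraries reached 1 FPKM, so it entered the fit through them and nothing is read from its call. dgat1a, of an enzyme that makes triglyceride, fell to 1.69 ± 0.0782 FPKM with As2S2, against 10.5 ± 1.14 FPKM in sf3b1 MO. sar1ab, of a small GTPase that buds transport vesicles, fell to 3.29 ± 0.651 FPKM, against 10.5 ± 1.41 FPKM in sf3b1 MO and 19.5 ± 1.43 FPKM in control MO. mttp, the transfer protein that lipidates apolipoprotein B, had 1.02 ± 0.163 FPKM with As2S2 and 0.864 ± 0.159 FPKM in sf3b1 MO and did not pass the threshold (limma adjusted p = 0.33). It was lower in sf3b1 MO than in control MO, at 1.50 ± 0.108 FPKM (log2 fold change on counts -0.86, edgeR adjusted p = 0.0043), as were both apolipoprotein B genes. In that comparison 1 of 10 assembly genes rose and 6 fell, where 25.2% and 25.9% of all genes did, with sar1ab, sar1b and surf4l among those that fell, at log2 fold changes of -0.90, -0.46 and -1.18.

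Lipoprotein receptors rose with As2S2 against sf3b1 MO in 0 of 16 genes and fell in 10, where 17.3% of all genes rose and 44.5% fell. After centring 2 rose and 5 fell, where 30.2% of all genes rose and 27.4% fell, so the falls were near the share of all genes. For lrp1ba, 1 of the 10 falls, no As2S2 library reached 1 FPKM. It entered the fit through the other libraries, so nothing is read from its call. ldlrb, 1 of the LDL receptor genes, fell to 3.17 ± 0.298 FPKM with As2S2, against 10.6 ± 0.243 FPKM in sf3b1 MO and 16.9 ± 0.599 FPKM in control MO. cd36, a receptor for fatty acids and modified particles, fell to 1.51 ± 0.214 FPKM, against 3.87 ± 0.969 FPKM in sf3b1 MO. In sf3b1 MO against control MO, 9 of 17 receptors rose and 3 fell by edgeR, where 25.2% and 25.9% of all genes did. lrp8, a receptor for apolipoprotein E, rose by a log2 fold change of 0.50 and sorl1 by 0.47, while ldlrb was at -0.63.

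Lipases and transfer proteins gave 1 rise and 3 falls among 5 genes with As2S2 against sf3b1 MO, beside 17.3% and 44.5% of all genes. After centring there were 2 rises and 1 fall, beside 30.2% and 27.4% of all genes. angptl4, of an inhibitor of lipoprotein lipase, rose to 44.4 ± 1.29 FPKM with As2S2, against 26.7 ± 1.73 FPKM in sf3b1 MO (relative log2 difference 0.91, limma adjusted p = 2.2e-06). lmf2b, a lipase maturation factor gene, did not pass the threshold. Endothelial lipase lipg and the phospholipid transfer protein pltp fell in sf3b1 MO against control MO, with log2 fold changes of -0.61 and -0.83. They were the 2 falls among 6 genes with no rise, where 25.9% of all genes fell and 25.2% rose.

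The list of cholesterol efflux and absorption also held regulators of sterol genes, among them srebf2 and insig1, so its counts are not of efflux and absorption alone. It gave 1 rise and 3 falls among 9 genes with As2S2 against sf3b1 MO, or 4 and 2 after centring. In sf3b1 MO against control MO it gave 2 rises and 3 falls among 9. The shares of all genes that rose and fell were 17.3% and 44.5%, or 30.2% and 27.4% after centring, and 25.2% and 25.9% in sf3b1 MO against control MO. abca1a, which hands cholesterol to apolipoprotein A-I, had 14.4 ± 0.400 FPKM with As2S2, 17.0 ± 0.371 FPKM in sf3b1 MO and 10.8 ± 0.292 FPKM in control MO. It rose in the libraries labelled sf3b1 MO against control MO, as apoa1a did (log2 fold change 0.68, edgeR adjusted p = 1.0e-08). With As2S2 it lay at -0.02 relative to the median gene, where apoa1a was at 2.29. srebf2, a regulator of sterol genes, fell in both steps, to 15.9 ± 0.578 FPKM with As2S2, 22.8 ± 0.956 FPKM in sf3b1 MO and 31.4 ± 0.273 FPKM in control MO. insig1, which holds that regulator back, was the gene that rose with As2S2 against sf3b1 MO, at 5.49 ± 0.315 FPKM against 4.43 ± 0.299 FPKM in sf3b1 MO (limma adjusted p = 0.018).

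Cholesterol synthesis genes fell with As2S2 against sf3b1 MO in 13 of 18 cases and rose in 2, where 44.5% of all genes fell, or fell in 8 and rose in 2 after centring, where 27.4% fell. In sf3b1 MO against control MO 12 of 20 fell and 0 rose, where 25.9% of all genes fell. hmgcs1, an early enzyme of the pathway, had 5.50 ± 0.0878 FPKM with As2S2, 14.4 ± 0.379 FPKM in sf3b1 MO and 17.7 ± 0.746 FPKM in control MO. hmgcra, of the rate-limiting enzyme, had 0.574 ± 0.212 FPKM with As2S2, 2.61 ± 0.354 FPKM in sf3b1 MO and 3.74 ± 0.112 FPKM in control MO, and cyp51 had 1.03 ± 0.158 FPKM with As2S2, 2.51 ± 0.359 FPKM in sf3b1 MO and 5.13 ± 0.276 FPKM in control MO. fdft1 and fdps fell in sf3b1 MO against control MO. With As2S2 against sf3b1 MO both were among the 13 falls (limma adjusted p = 0.028 and 0.040), at -0.26 and -0.03 relative to the median gene. Their As2S2 libraries overlapped those labelled sf3b1 MO, at 0.275 to 0.755 FPKM against 0.728 to 1.32 FPKM for fdft1 and 11.2 to 14.5 FPKM against 14.2 to 15.6 FPKM for fdps. lbr, which encodes a sterol reductase that is also a lamin receptor, rose to 43.8 ± 0.808 FPKM with As2S2, against 19.5 ± 1.74 FPKM in sf3b1 MO.

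Transcription regulators of liver and gut gave 5 rises and 5 falls among 14 genes with As2S2 against sf3b1 MO, where 17.3% of all genes rose and 44.5% fell, or 6 and 0 after centring, where 30.2% and 27.4% did. cebpb, a regulator of acute-phase and lipid genes in liver, had 40.7 ± 2.11 FPKM with As2S2, 16.8 ± 1.95 FPKM in sf3b1 MO and 10.8 ± 0.776 FPKM in control MO. This is the order of groups that apoa1a and apoa2 had, with relative log2 differences of 1.43 from sf3b1 MO and 2.07 from control MO (limma adjusted p = 2.1e-06 and 1.1e-07). onecut1, needed for liver and bile duct formation, rose to 4.41 ± 0.294 FPKM with As2S2, against 1.64 ± 0.283 FPKM in sf3b1 MO, and was lower in sf3b1 MO than in control MO, at 2.90 ± 0.412 FPKM. rxrba, a partner of nuclear receptors, rose with As2S2 against sf3b1 MO as well. foxa3, a factor of gut and liver precursors, fell to 0.485 ± 0.154 FPKM with As2S2, against 0.921 ± 0.0722 FPKM in sf3b1 MO and 1.74 ± 0.128 FPKM in control MO, but did not pass the threshold against sf3b1 MO after centring. No As2S2 library reached 1 FPKM for foxa3. It entered the fit through libraries without As2S2, so nothing is read from its call. In sf3b1 MO against control MO 6 of 21 regulators rose and 5 fell by edgeR, near the 25.2% and 25.9% of all genes that did.

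**Figure D5:**
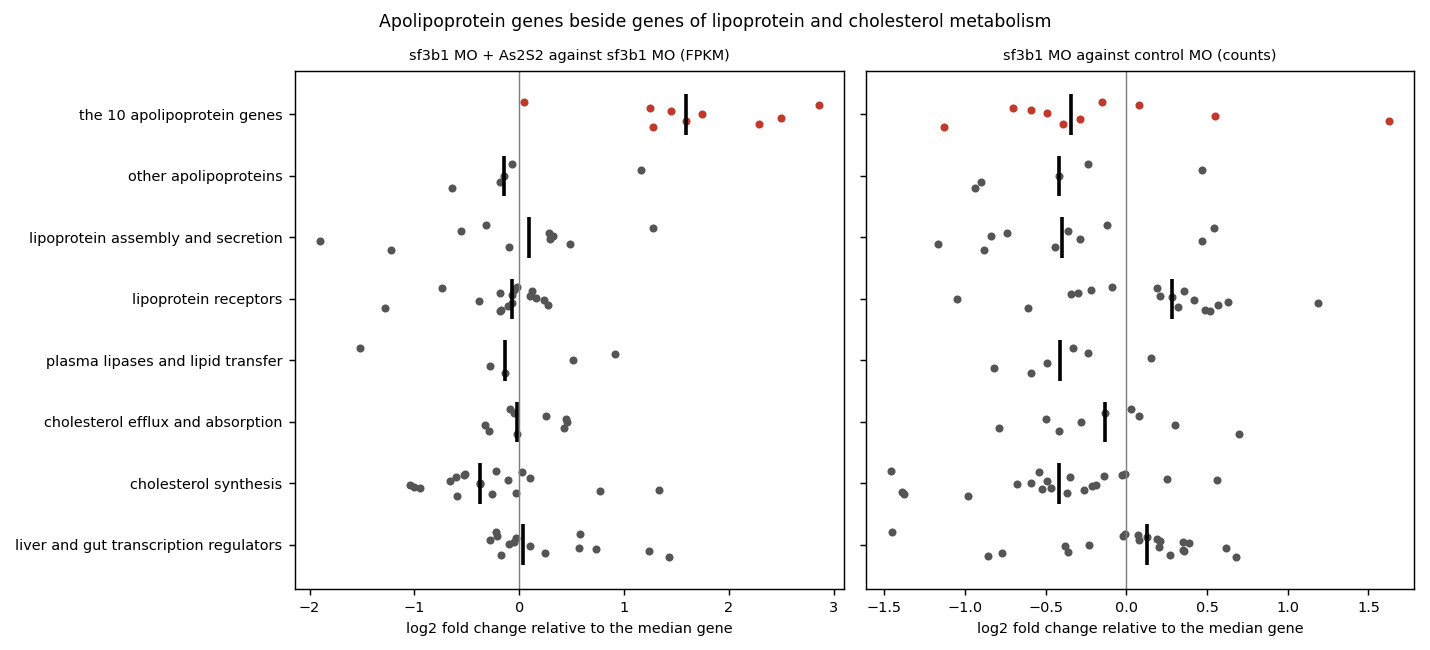
Log2 fold changes relative to the median gene for the apolipoprotein genes (red) and the 7 lists of related genes (grey), As2S2 against sf3b1 MO on FPKM at left and sf3b1 MO against control MO on counts at right, with each point 1 gene and the bar the list median. At left the apolipoprotein median is 1.59, in the comparison on which these genes were chosen, and those of the lists lie between -0.37 and 0.09.

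Markers of the tissues that make apolipoproteins were measured in the same libraries. Of 15 hepatocyte markers 13 were found, of which 11 had values in all 3 groups and none of these was at 0. fabp10a, a fatty acid binding protein gene of liver, is listed without As2S2 values, at 1.63 FPKM in sf3b1 MO and 2.43 FPKM in control MO, and could not be tested with As2S2. fgg is listed with As2S2 values alone, at 2.13 FPKM. With As2S2 against sf3b1 MO, 7 of the 9 tested rose and 1 fell by limma, where 17.3% and 44.5% of all genes did, and 8 and 1 after centring, where 30.2% and 27.4% did. The relative median of the 9 was 1.09. c3a.1 and ambp, both among those that rose, reached 1 FPKM only in the As2S2 libraries. They entered the fit through those libraries, so their calls add nothing, and nothing is read from the counts or the median of 1.09, which include them. fgb, of a fibrinogen chain, had 6.94 ± 0.102 FPKM with As2S2, 2.04 ± 0.179 FPKM in sf3b1 MO and 1.91 ± 0.369 FPKM in control MO. tfa, of the iron carrier transferrin, had 8.58 ± 0.523 FPKM with As2S2, 4.69 ± 2.96 FPKM in sf3b1 MO and 5.78 ± 0.786 FPKM in control MO. The summed FPKM of the 11 complete markers, 54.1 to 60.1 with As2S2, 49.8 to 57.1 in sf3b1 MO and 209 to 215 in control MO, is set largely by the retinol carrier rbp4, which fell to 15.7 to 18.9 FPKM with As2S2, against 35.5 to 41.5 FPKM in sf3b1 MO and 192 to 202 FPKM in control MO. Without rbp4, a choice made after its values were seen, the sum of the other 10 was 38.5 to 41.3 with As2S2, 14.3 to 19.3 in sf3b1 MO and 13.9 to 16.2 in control MO. The order of the groups thus depended on whether rbp4 was kept, and nothing is read from the sum without it. The part of hepatocytes in the apolipoprotein levels was not tested.

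The other lists with matched markers gave As2S2 sums that overlapped or lay below those of the libraries labelled sf3b1 MO. Of 8 enterocyte markers 7 were found. cdx1b is listed without As2S2 values and slc15a1b with As2S2 values alone, and the other 5, none at 0, summed to 16.9 to 21.8 FPKM with As2S2, 13.5 to 18.1 FPKM in sf3b1 MO and 14.2 to 15.4 FPKM in control MO. With As2S2 against sf3b1 MO, 1 of 4 tested enterocyte markers rose and 2 fell, beside 17.3% and 44.5% of all genes. For vil1, 1 of the 2 falls, no As2S2 library reached 1 FPKM. It entered the fit through the other libraries, so nothing is read from its call. fabp1b.1, a fatty acid binding protein gene of gut and liver, rose to 15.5 ± 2.70 FPKM with As2S2, against 2.37 ± 0.596 FPKM in sf3b1 MO (relative log2 difference 2.50, limma adjusted p = 4.1e-06), and rbp2a fell to 1.05 ± 0.491 FPKM, against 9.39 ± 3.03 FPKM in sf3b1 MO. fabp2 had 1.60 ± 0.196 FPKM with As2S2 and 1.66 ± 0.415 FPKM in sf3b1 MO. Yolk syncytial layer markers, 4 found of 7 and none at 0, summed to 16.3 to 16.9 FPKM with As2S2, 18.0 to 20.3 FPKM in sf3b1 MO and 17.0 to 19.0 FPKM in control MO. slc40a1, the iron exporter, made up most of that sum, and slc7a9 did not pass the threshold in any comparison. None of the 7 vitellogenin symbols matched. Of 12 macrophage and microglia markers 9 were found, of which ccl34b.1 is listed without As2S2 values, at 0.863 FPKM in sf3b1 MO and 1.53 FPKM in control MO. The other 8, none at 0, summed to 6.44 to 6.67 FPKM with As2S2, 6.30 to 8.16 FPKM in sf3b1 MO and 6.38 to 7.51 FPKM in control MO, and the 3 ranges overlapped. Among them lcp1 fell with As2S2 against sf3b1 MO, a call that was lost after centring, and spi1b and marco did not pass the threshold there. The part of these cell types in the apolipoprotein levels was not tested.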

How the data were processed

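All values came from 1 deposited table. It holds whole-number counts per gene for 6 libraries, deposited under headers reading ko and wt, which were taken as sf3b1 MO and control MO because the design text of the series speaks of a knockout. FPKM are deposited for all 9 libraries, and no label says whether they share 1 normalization. The table also carries the authors' comparison of ko with wt: log2 fold changes, of which those of the 10 genes were used, and p-values, which the authors deposited beside them and which were not used. Per the submitters' processing notes, fastp 0.22.0, DESeq2 and the GRCz11 assembly were used, and no aligner or counter is named. Values of control MO and sf3b1 MO are listed for 20723 genes, of As2S2 for 20146 and of all groups for 19760.

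Counts were tested with edgeR 4.0.16 (quasi-likelihood, TMM, default filter, robust fit). The common biological coefficient of variation was 0.205. FPKM were fitted with limma 3.58.1 in 1 fit of all 9 libraries, on log2(FPKM + 1), whose pseudocount of 1 understates changes of low genes. The 18013 genes fitted reached 1 FPKM in 3 or more libraries. The design had assumed counts for all libraries. The Benjamini-Hochberg adjustment ran over every gene fitted, with a threshold of 0.05. Both fits were tested on simulated data. DESeq2 1.42.0, other scalings, filters, pseudocounts, 2 groups only and leaving out each library were alternatives. The genes and lists were chosen with earlier results of these data known. Named were all 10 genes, every other apolipoprotein found, up to 3 per related list by smallest edgeR p and up to 3 by largest As2S2 difference from sf3b1 MO, and the 3 best expressed markers per list of a cell type that makes apolipoproteins or takes them up. 1 gene that this rule names is not reported here.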

Additional observations from a re-analysis of the deposited data

How the results depend on the processing

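The number of apolipoprotein genes past the threshold stayed within 1.5 times its reported value under every alternative tried: 6 to 8 for sf3b1 MO against control MO, 7 to 9 for As2S2 against sf3b1 MO and 7 to 8 for As2S2 against control MO. For the related lists these ranges were 44 to 52, 41 to 57 and 53 to 63 genes. On counts, leaving out the filter could change nothing, since the default filter had kept all 20723 genes. The replicate numbers did not pair the libraries, as deviations from the group means of same-numbered libraries correlated between -0.072 and 0.042. With a replicate block, 7, 9 and 8 apolipoprotein genes and 50, 51 and 57 list genes passed, and apoc2 missed the threshold on counts (edgeR adjusted p = 0.064). As the genes were chosen on their As2S2 values, counts of those comparisons describe the choice. With 1 library at a time left out, the unshifted As2S2 difference of apoa1b ran from 1.05 to 2.02 against sf3b1 MO and from 0.98 to 1.94 against control MO, lowest without As2S2 replicate 2. Signs turned for values near 0. Median centring gave 0.07 for apoeb against sf3b1 MO and, against control MO with As2S2, 0.28 for insig1, 0.15 for insig2, 0.14 for lmf2b and 0.12 for stab2. Leaving out 1 library at a time gave -0.10 to 0.19 for apoea and -0.04 to 0.27 for cd36 in sf3b1 MO against control MO, and -0.01 to 0.25 for apoc2 and -0.06 to 0.03 for insig1 with As2S2 against control MO. The causes were not tested. No depth is known for the As2S2 libraries, and apoc2, apoa4b.1 and apoba rest on 33 to 240 counts a library.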
